A study of Mus musculus with 6 samples.

Results

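The inflammation-responsive microRNAs miR-146a, miR-146b, miR-155, miR-21 and miR-132 were read in whole mouse aortas by TaqMan PCR. They are 5 of the 517 microRNA assays on the array cards, picked by assay name. The tested aortas came from 3 LysM-Cre/Dicerflox/flox/Apoe-/- males (Dicer_KO), in which Cre made under the lysozyme M promoter removes Dicer, the enzyme that cuts microRNA precursors into mature strands. They were set against 3 LysM-Cre/Dicerwt/wt/Apoe-/- male littermates (Dicer_WT), which carry the same Cre and the same loss of Apoe, the lipoprotein gene whose absence makes mice prone to atherosclerosis. All 6 mice entered the experiment at 6 to 8 weeks of age and ate chow with 21% crude fat for 12 weeks. Lysozyme M drives Cre in monocytes, macrophages and neutrophils, so Dicer in smooth muscle and endothelium is not targeted by design, and all of these cells are in the RNA measured. The labels also name macrophage as a cell type, but the smooth muscle microRNA miR-145 reached threshold at Ct 11.5 to 12.7 in the 6 aortas, so the values are read here as those of the vessel wall. Dicer mRNA was not measured on these cards.

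These microRNAs are grouped because inflammatory signals set their levels in many cells. Toll-like receptor and NF-kB signalling switches on miR-146a and miR-155 in macrophages: miR-146a then represses the adaptors IRAK1 and TRAF6 and damps the signal, whereas miR-155 represses SHIP1 and SOCS1 and sustains it. miR-146b is a close copy of miR-146a from another chromosome. miR-21 is made by most cell types, including smooth muscle, and represses PDCD4. miR-132 is made from a CREB-driven precursor that it shares with miR-212 and represses the GTPase-activating protein p120RasGAP in endothelium.

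The mature strands, from RefSeq (GRCm38.p6), are shown because they define which members can act on the same targets. Capitals mark the seed, bases 2 to 8 from the 5′ end, which pairs with the target.
miR-146a: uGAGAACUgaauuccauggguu
miR-146b: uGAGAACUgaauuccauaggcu
miR-155: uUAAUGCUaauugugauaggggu
miR-21: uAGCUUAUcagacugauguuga
miR-132: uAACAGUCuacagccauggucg

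miR-146a and miR-146b share the seed and 20 of 22 bases. With positions counted from the 5′ end and the base of miR-146a given first, they differ by G18A and U21C. The other members have seeds of their own. Among RefSeq mature strands, the seed of miR-132 was also that of miR-212-3p, and the seed of miR-21 that of miR-21c. Neither of these had an assay of its name among the deposited rows, so neither was analysed here.

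The strands come from different loci. miR-146a lies at chr11:43374435-43374456 on the minus strand, and miR-146b at chr19:46342790-46342811 on the plus strand, within the noncoding RNA gene Gm36493. miR-155 lies at chr16:84714143-84714165 on the plus strand within its noncoding host Mir155hg. miR-21 (miR-21a-5p in RefSeq) lies at chr11:86584120-86584141 on the minus strand within the protein-coding gene Vmp1. miR-132 (miR-132-3p) lies at chr11:75173723-75173744 on the plus strand, and 203 bases separate its hairpin from that of miR-212. Whether these hosts cover the hairpins with exon or intron was not read here.

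A threshold cycle (Ct) is the PCR cycle at which product passes a set signal, so 1 cycle less means about 2 times the RNA. Wells without product are listed at Ct 40, and a Ct under 35 was taken as detected. Between 349 and 366 assays were detected in Dicer_KO aortas and between 374 and 378 in Dicer_WT aortas, and 377 were tested. Of these, 7 passed limma's adjusted p threshold of 0.05 as lower in Dicer_KO aortas (1.86% of assays) and 0 as higher (9 assays, 2.39%, at an unadjusted p under 0.05). An assay could enter the 377 through a single genotype, with the silent wells of the other set to Ct 35. Its direction was then set in advance, and the counts and shares over all assays tested include any such assay. Product in all 6 aortas was found for 330 assays, and over these alone 20 passed as lower and 2 as higher. Leaving out Dicer_KO replicate 1 raised the 7 to 55, and leaving out replicate 2 raised it to 11. The median log2 fold change of all assays tested was -0.42, so each member is also given relative to that median.

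Of the 5 members, 4 were detected in all 6 aortas and tested, and miR-146b was detected in none. All 4 tested members were lower on average in Dicer_KO aortas on the authors' scale, as were 78.2% of all assays tested, though miR-132 turned above 0 against U87 and Y1. The threshold was passed by 0 of 4 (limma adjusted p from 0.106 to 0.228). In 3 of the 4, every Dicer_KO aorta lay below every Dicer_WT aorta on the authors' scale, where 32.6% of all assays tested did so and 2.39% were separated in the opposite direction. Of those 3, miR-132 overlapped in Ct before normalization. The median log2 fold change of the 4 was -0.67, beside -0.42 for all assays.

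**Figure D1:**
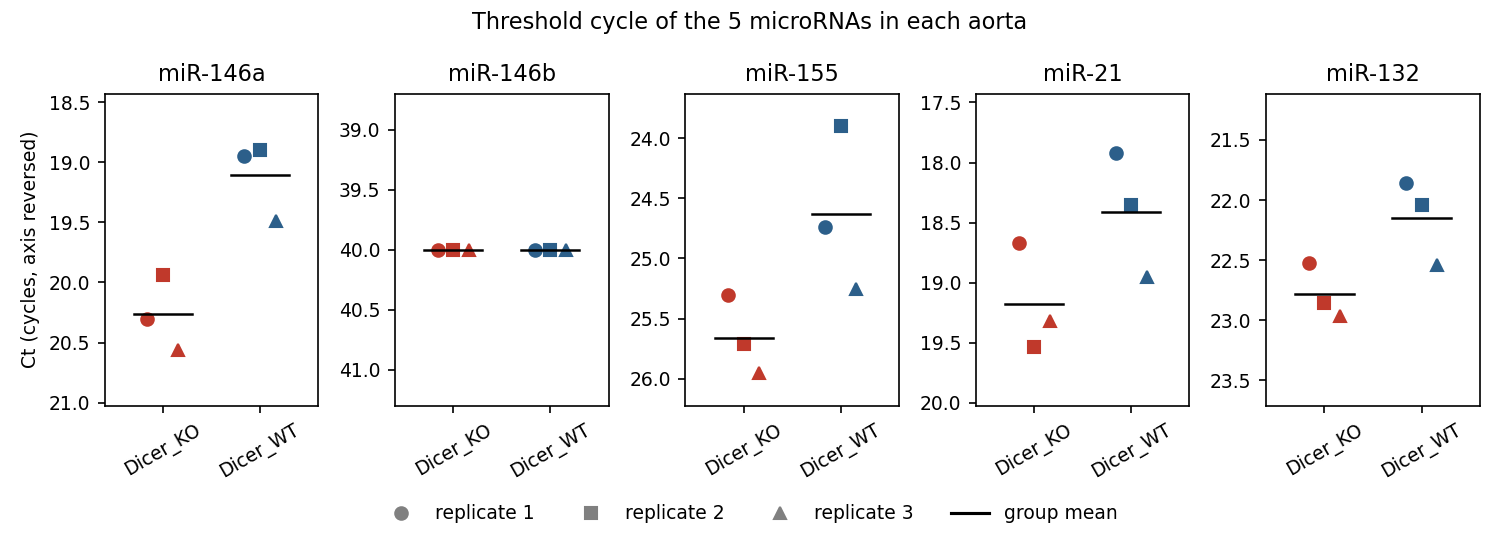
Threshold cycle (Ct, in cycles, axis reversed so that more RNA is higher) of the 5 microRNAs in 3 Dicer_KO and 3 Dicer_WT aortas; symbols are replicates and bars are group means. miR-146a and miR-155 do not overlap between genotypes, miR-21 and miR-132 do on this scale before normalization, and miR-146b is at 40 in all 6 aortas.

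miR-146a, the feedback brake on NF-kB signalling, had Ct values of 20.3, 19.9 and 20.6 in Dicer_KO aortas, against 18.9, 18.9 and 19.5 in Dicer_WT aortas. Relative to the reference RNAs, its quantity was 0.453, 0.712 and 0.447 in Dicer_KO aortas, against 0.970, 1.23 and 0.839 in Dicer_WT aortas. The genotypes did not overlap on either scale, and Dicer_KO replicate 2 was the nearest to the Dicer_WT range. The mean quantity was 0.537 ± 0.152 in Dicer_KO and 1.01 ± 0.199 in Dicer_WT aortas (SD, n = 3 each). The log2 fold change was -0.93 ± 0.271 (SE), with a 95% interval of -1.60 to -0.26 and a limma adjusted p of 0.106 (unadjusted p = 0.0143). An unadjusted p under 0.05 with a lower value was reached by 24.4% of all assays, and 17.0% of assays had a lower log2 fold change than miR-146a. Relative to the median assay it lay at -0.52.

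miR-146b, whose mature strand shares the seed of miR-146a, gave no product in any Dicer_KO or Dicer_WT aorta. Whether its assay detects the strand in this RNA was not tested, so Ct 40 is not read here as absence of miR-146b. In the same aortas the miR-146a assay reached threshold by Ct 20.6 at the latest. The authors' deposited table of relative quantities nevertheless holds numbers for miR-146b, 1.04, 1.26 and 1.22 in Dicer_KO and 0.866, 1.06 and 1.09 in Dicer_WT aortas. In every aorta these match the values rebuilt here by subtracting Ct 40 from the mean Ct of the reference RNAs of each aorta. The 64 assays of this card at Ct 40 in all 6 aortas hold identical numbers within each aorta, so these values describe the reference RNAs and not miR-146b. For the same reason the fold of 1.17 for miR-146b in the authors' deposited table is no measure of that microRNA, and no fold is given here.

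miR-155, which sustains inflammatory signalling in macrophages, had Ct values of 25.3, 25.7 and 26.0 in Dicer_KO aortas, against 24.7, 23.9 and 25.3 in Dicer_WT aortas. Its relative quantity was 0.648, 0.596 and 0.488 in Dicer_KO aortas, against 0.804, 1.76 and 0.707 in Dicer_WT aortas. The genotypes did not overlap, but the gap between the highest Dicer_KO and the lowest Dicer_WT aorta was small beside the spread within Dicer_WT, in which replicate 2 stood far above the others. The means were 0.577 ± 0.0820 in Dicer_KO and 1.09 ± 0.581 in Dicer_WT aortas (SD, n = 3 each). The log2 fold change was -0.80 ± 0.384 (SE, 95% interval -1.75 to 0.14, limma adjusted p = 0.226), and -0.39 relative to the median assay. Without Dicer_WT replicate 2 the log2 fold change was -0.40, and -0.03 relative to the median assay (limma adjusted p = 0.415, between 0.157 and 0.684 over the alternatives tried).

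miR-21, a microRNA of most vascular cells, had Ct values of 18.7, 19.5 and 19.3 in Dicer_KO aortas, against 17.9, 18.4 and 19.0 in Dicer_WT aortas. Its relative quantity was 0.867, 0.580 and 0.649 in Dicer_KO aortas, against 1.22, 1.10 and 0.747 in Dicer_WT aortas. The genotypes overlapped, since Dicer_KO replicate 1 stood above Dicer_WT replicate 3. The log2 fold change was -0.54 ± 0.272 (SE, 95% interval -1.21 to 0.13, limma adjusted p = 0.228). It lay at -0.12 relative to the median assay, with 38.5% of assays lower.

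miR-132, the CREB-responsive member, had Ct values of 22.53, 22.86 and 22.97 in Dicer_KO aortas, against 21.86, 22.04 and 22.54 in Dicer_WT aortas. Its relative quantity was 0.795, 0.772 and 0.690 in Dicer_KO aortas, against 1.06, 1.14 and 0.831 in Dicer_WT aortas. The genotypes did not overlap on this scale, though the closest pair of aortas was Dicer_KO replicate 1 and Dicer_WT replicate 3, which overlapped in Ct before normalization. The log2 fold change was -0.41 ± 0.195 (SE, 95% interval -0.89 to 0.067, limma adjusted p = 0.226). It stood at 0.003 from the median assay, with 50.4% of assays lower, and with U87 and Y1 as references it turned to 0.099.

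The choice of reference RNA moved all 4 members together with the other assays. It shifts every assay of a card by the same amount within an aorta, so only quantile normalization could alter the spacing of the members. Relative to U87 and Y1 the median of all assays was 0.16, and miR-146a, miR-155 and miR-21 were at -0.42, -0.29 and -0.03. With no normalization the median was -0.64 and the same members were at -1.16, -1.03 and -0.76. Set against the median of each setting, miR-146a ranged from -0.60 to -0.44 over these 6 normalizations and miR-155 from -0.45 to -0.31, although without Dicer_WT replicate 2 miR-155 lay at -0.03 on the authors' scale. miR-132 stayed within -0.14 and 0.079 of it. U87 and Y1, noncoding RNAs that are made without Dicer, themselves differed by -0.47 and -0.55 on the authors' scale on the card that holds the members (two-sided exact permutation p = 0.1 each, the lowest value possible with 3 aortas in each genotype).

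**Figure D2:**
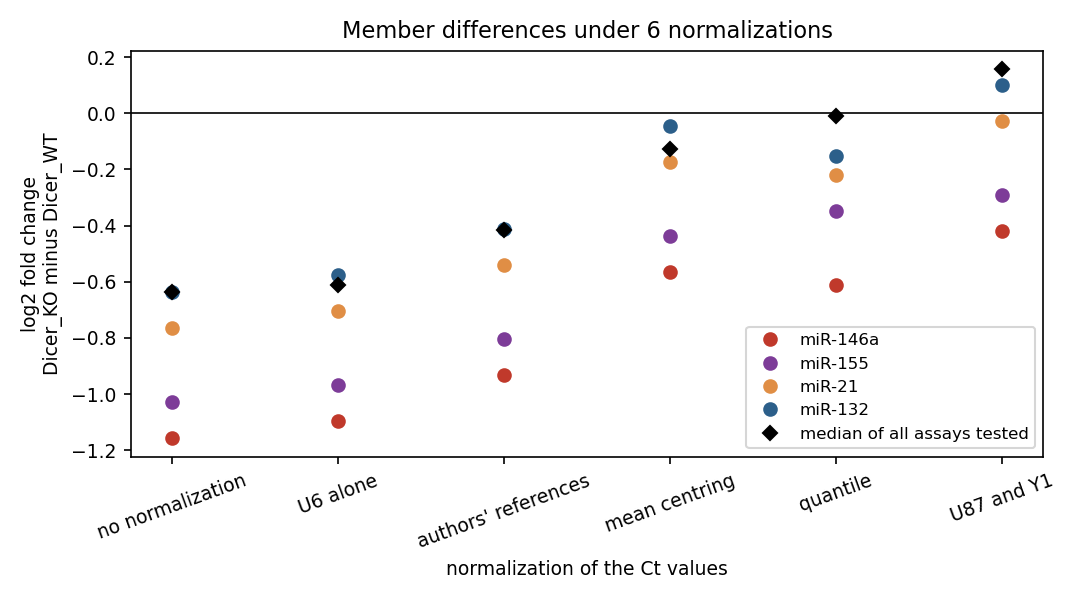
Log2 fold change (Dicer_KO minus Dicer_WT) of the 4 detected members (circles) and the median of all assays tested (diamonds) under 6 normalizations of Ct. Apart from quantile normalization, each setting shifts the members by the same amount, because they lie on the same card. miR-132 lies close to the median throughout, and miR-146a is the lowest in each, from -1.16 without normalization to -0.42 relative to U87 and Y1.

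Ratios of 2 members within an aorta need no reference RNA, because all 4 lie on the same card. Of the 6 pairs, 0 had genotypes that did not overlap, and exact permutation p-values were between 0.2 and 0.7 (two-sided, 0.7 for each after Benjamini-Hochberg adjustment over the 6 pairs). The largest difference was that of miR-146a over miR-132, whose log2 ratio was -0.81, -0.12 and -0.63 in Dicer_KO aortas, against -0.13, 0.11 and 0.014 in Dicer_WT aortas. The mean difference was -0.52, and Dicer_KO replicate 2 lay among the Dicer_WT values (exact permutation p = 0.2). Unequal shifts among the members were not detected by this test, whose smallest possible p is 0.1.

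Myeloid and leukocyte microRNAs were read on the same card. In bulk tissue, fewer cells of a type and less RNA per cell cannot be told apart. Of 4 myeloid markers (miR-223, miR-511, miR-342-3p and miR-342-5p), all were detected in every aorta and 4 lay lower in each Dicer_KO than in each Dicer_WT aorta (32.6% of all assays did so), with 0 past the threshold. Their summed relative quantity was between 0.898 and 1.87 in Dicer_KO and between 3.36 and 5.22 in Dicer_WT aortas. The pan-leukocyte pair miR-142-3p and miR-142-5p, by contrast, overlapped, with a sum between 1.71 and 2.30 in Dicer_KO and between 1.72 and 2.32 in Dicer_WT aortas. The part of these shifts in the members' values was not tested, and their ratios are given next.

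miR-146a over miR-142-3p was -0.94, -0.74 and -0.89 on the log2 scale in Dicer_KO aortas, against -0.043, 0.089 and -0.047 in Dicer_WT aortas. The difference was -0.86, with SDs of 0.107 in Dicer_KO and 0.0774 in Dicer_WT aortas (n = 3 each, exact permutation p = 0.1, two-sided, 0.133 adjusted over 8 ratios). This ratio had a narrower spread within both genotypes than log2 miR-146a itself (SDs of 0.383 in Dicer_KO and 0.279 in Dicer_WT aortas). The narrowing is not particular to miR-142-3p, since miR-146a over miR-223 had SDs of 0.124 and 0.163 in the same order. The difference in miR-146a over miR-142-3p ranged from -0.92 to -0.81 when single aortas were left out. miR-155 and miR-132 over miR-142-3p were lower too, by -0.73 and -0.34 with no overlap (exact permutation p = 0.1 each). The log2 fold change of miR-142-3p itself was -0.07, and the median of all assays tested was -0.42. An assay at that median, as miR-132 nearly was (0.003 from it), is thus also lower against miR-142-3p. The share of all assays separated in this ratio was not computed. miR-21 over miR-142-3p overlapped between genotypes (difference -0.46, exact permutation p = 0.3). The value of miR-155 over miR-142-3p was -0.43 without Dicer_WT replicate 2, that of miR-21 was -0.18 and that of miR-132 -0.20 without Dicer_KO replicate 2.

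Against miR-223, the granulocyte and macrophage microRNA, the members were relatively higher in Dicer_KO aortas. An assay at the median of all assays tested (-0.42) would be too, since miR-223 had a log2 fold change of -1.66. The share of all assays separated in this ratio was not computed. The log2 ratio of miR-146a to miR-223 was 0.70, 0.63 and 0.87 in Dicer_KO aortas, against 0.037, -0.18 and 0.14 in Dicer_WT aortas. The difference was 0.73 for miR-146a, 0.86 for miR-155 and 1.25 for miR-132, without overlap (exact permutation p = 0.1 each, 0.133 adjusted over 8 ratios). For miR-21 it was 1.12, with overlapping genotypes (exact permutation p = 0.2). miR-223 itself was at 0.279, 0.461 and 0.245 in Dicer_KO aortas, against 0.945, 1.39 and 0.761 in Dicer_WT aortas, a wider separation than that of any member.

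**Figure D3:**
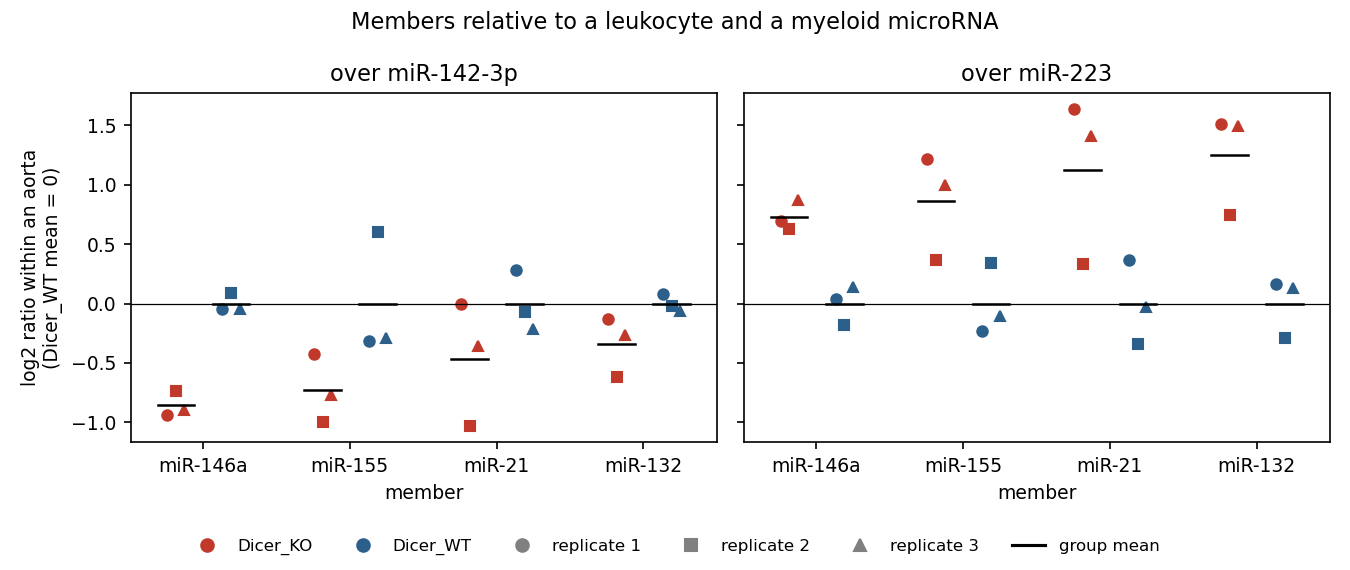
Log2 ratio within each aorta of the 4 detected members to the pan-leukocyte miR-142-3p (left) and to the myeloid miR-223 (right), with the Dicer_WT mean at 0; symbols are replicates and bars are group means. All Dicer_KO values of miR-146a, miR-155 and miR-132 lie below those of Dicer_WT on the left and above them on the right, while miR-21 overlaps in both. An assay at the median of all assays tested would also have a lower mean on the left and a higher mean on the right.

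Likeness of profile over the 6 aortas was described with Pearson's r among 376 other assays. The points share the reference RNAs of their aorta and the shift between genotypes. miR-146a was most like miR-223 (r = 0.991), miR-511 (r = 0.978) and miR-340-3p (r = 0.969). With the mean of each genotype removed, miR-146a and miR-223 gave r = 0.985, and with each aorta centred on its median assay r = 0.938, where miR-374 (r = 0.952) ranked above it. miR-223 stood out as the highest r of 376 assays over these same aortas, so the further values for this pair are no separate support. With genotype means removed, r was computed for a few pairs only and was not ranked among all assays. The order of the aortas was the same for miR-146a and miR-223, with Dicer_KO replicate 3 lowest and Dicer_WT replicate 2 highest.

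miR-155 was most like miR-106b*, miR-186* and miR-376a (r = 0.963, 0.956 and 0.951). The nearest profiles to miR-21 were those of let-7f, miR-299* and miR-136 (r = 0.99, 0.98 and 0.97), and to miR-132 those of miR-674*, miR-500 and miR-532-5p (r = 0.989, 0.984 and 0.981). With each aorta centred on its median assay, the nearest to miR-155 were miR-106b*, miR-376a and let-7a*, to miR-21 miR-299*, let-7f and miR-685, and to miR-132 miR-485*, miR-674* and miR-384-3p. None of the 4 members was among the nearest profiles of another. Between members, r was between 0.583 for miR-146a with miR-21 and 0.892 for miR-155 with miR-132. After centring on the median assay these values were -0.15 and 0.559.

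**Figure D4:**
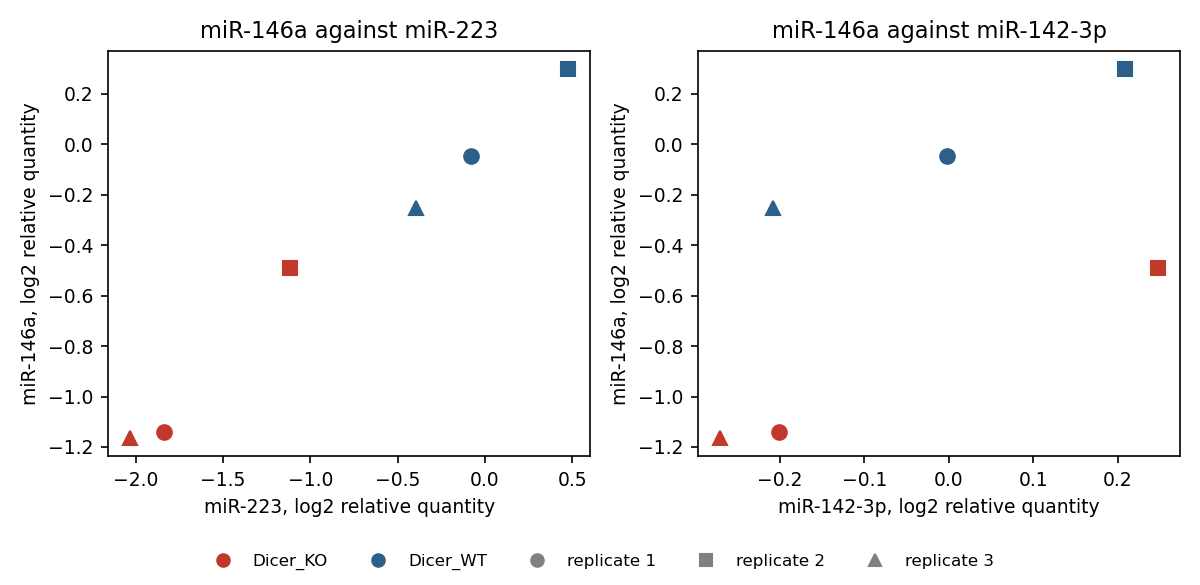
Log2 relative quantity of miR-146a against that of miR-223 (left) and of miR-142-3p (right) in the 6 aortas (red for Dicer_KO, blue for Dicer_WT; symbols are replicates). Against miR-223, picked as the highest r of 376 assays, the 6 points lie close to a line (r = 0.991). Against miR-142-3p the Dicer_KO aortas lie below the Dicer_WT aortas at like levels of miR-142-3p.

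Both arms of the hairpins of miR-146b and miR-21 had assays. The hairpins are shown with the measured arms in capitals, 5′ arm first, at chr19:46342762-46342870 on the plus strand and chr11:86584067-86584158 on the minus strand.
Mir146b: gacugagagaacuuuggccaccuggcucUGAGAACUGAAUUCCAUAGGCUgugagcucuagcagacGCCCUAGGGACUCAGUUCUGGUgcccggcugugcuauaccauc
Mir21a: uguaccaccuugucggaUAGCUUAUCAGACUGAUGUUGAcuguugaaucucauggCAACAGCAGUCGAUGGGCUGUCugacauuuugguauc

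The 3′ arm of the miR-146b hairpin, miR-146b*, was detected in 5 of 6 aortas although the 5′ arm gave no product with its own assay, whose performance was not tested. Its Ct was 29.9, 40 and 29.8 in Dicer_KO aortas, against 28.6, 28.1 and 29.4 in Dicer_WT aortas. Both detected Dicer_KO aortas lay later than every Dicer_WT aorta, and Dicer_KO replicate 2 was silent. With the silent well set to Ct 35, the log2 fold change was -2.66 ± 1.43 (SE, limma adjusted p = 0.245). Without Dicer_KO replicate 2, or with the silent well left missing, it was -0.97 (limma adjusted p = 0.261 and 0.162).

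The 3′ arm of the miR-21 hairpin, miR-21*, had relative quantities of 2.34, 1.12 and 0.882 in Dicer_KO aortas, against 1.23, 1.36 and 0.597 in Dicer_WT aortas. These overlapped, and the log2 fold change was 0.40 ± 0.489 (SE, limma adjusted p = 0.545), near 0 without Dicer_KO replicate 1 at -0.0082. The log2 ratio of the arms, miR-21* over miR-21, was 1.43, 0.95 and 0.44 in Dicer_KO aortas, against 0.017, 0.31 and -0.32 in Dicer_WT aortas. The genotypes did not overlap in this ratio, which was picked after the values of both arms had been seen (difference 0.94, exact permutation p = 0.1). The arms lie on different cards, so the ratio rests on the reference RNAs of both.

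Other microRNAs that Toll-like receptor or cytokine signalling induces in myeloid cells were followed as a list of 11, of which 10 were tested. Of these, 0 passed the threshold, beside 1.86% of all assays as lower. On the authors' scale 10 of 10 were below 0, as were 78.2% of all assays tested. Of the 10, miR-9, miR-210 and miR-125a-5p turned above 0 with U87 and Y1 as references, with mean centring and after quantile normalization, and miR-27b with U87 and Y1. In 7 of 10, miR-147 with silent Dicer_KO wells among them, the genotypes did not overlap on that scale (32.6% of all assays), and the median was -0.67 beside -0.42 for all assays. Of those 7, let-7e and miR-27b overlapped in Ct before normalization. Because miR-147 passed the filter through the Dicer_WT aortas alone, its sign and separation were set in advance and carry no weight in these counts.

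The extreme of the list was miR-147, which Toll-like receptors induce in mouse macrophages. It gave no product in any of the 3 Dicer_KO aortas, against Ct values of 29.2, 31.1 and 33.0 in Dicer_WT aortas. It entered the comparison through the Dicer_WT aortas alone, so no p-value is given. Taking Ct 35 as the floor, the log2 difference was -3.67, a level at least 12.759-fold lower in Dicer_KO aortas. That limit depends on single aortas and on the floor, at -2.84 without Dicer_WT replicate 1, -4.56 without Dicer_WT replicate 3 and -1.01 with a floor of Ct 32. miR-187, an IL-10-induced repressor of cytokine output in human monocytes, was at -1.32 (adjusted p = 0.0641). The endothelial and smooth muscle pair miR-221 and miR-222 was at -0.98 and -0.58, and the clustered miR-99b, let-7e and miR-125a-5p at -0.77, -0.76 and -0.18. miR-27b was at -0.50, miR-210 at -0.27 and miR-9 at -0.02.

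A further list held microRNAs known to restrain vascular or myeloid inflammation, of which 8 of 9 were tested and 0 passed. All 8 were below 0 on the authors' scale, as were 78.2% of all assays tested, and their median of -0.42 was that of all assays. Of the 8, miR-125b-5p, miR-181a, miR-126-3p and miR-31 turned above 0 under those same 3 normalizations. The genotypes did not overlap for 2 of 8, beside 32.6% of all assays. These were miR-223 at -1.66 (limma adjusted p = 0.0641) and miR-10a at -0.52, which limits NF-kB activity in endothelium. let-7c was at -0.61, miR-31 at -0.31, miR-181a at -0.21, miR-125b-5p at -0.08 and the endothelial miR-126-3p at -0.01. miR-124 was at -1.303 with a silent Dicer_KO replicate 3, and at 0.81 without that aorta.

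**Figure D5:**
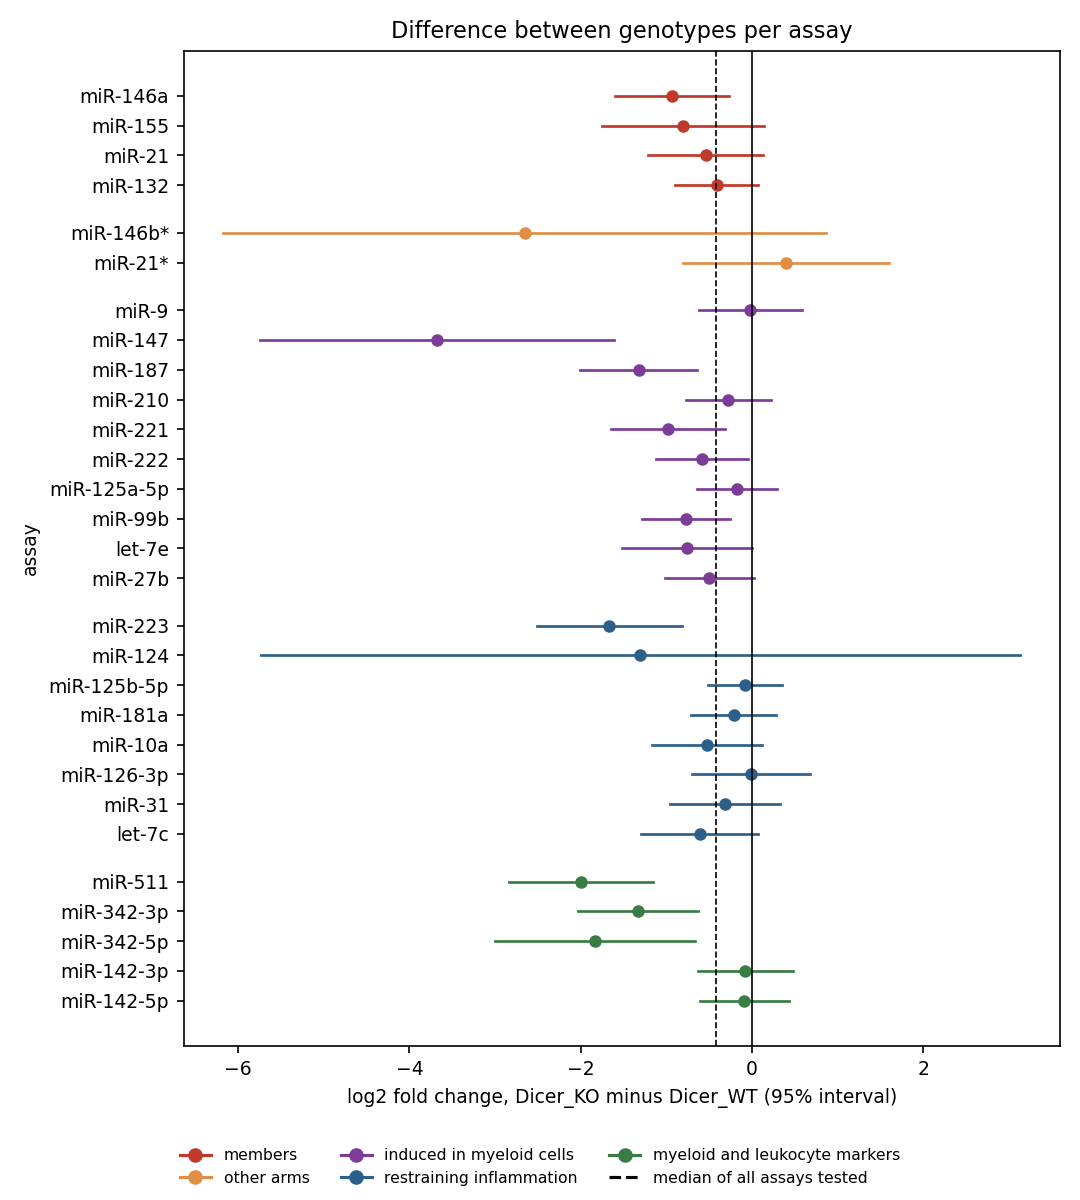
Log2 fold change (Dicer_KO minus Dicer_WT) with 95% intervals for the 4 detected members, the other arms, both inflammation lists and the myeloid and leukocyte markers; the dashed line is the median of all assays tested, -0.42. miR-146a is the member whose interval lies wholly below 0 (-1.60 to -0.26), and miR-223, miR-511 and both miR-342 arms lie further left than any member. The miR-147 interval is set by the Ct 35 floor in all 3 Dicer_KO aortas.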

How the data were processed

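Total RNA of 6 aortas was reverse-transcribed, preamplified and read with FAM probes, per the labels. The table of Ct values deposited by the authors holds 335 and 182 microRNA assays on 2 cards. Reading software, array lots and run dates were not given in the sources used here. Therefore no batch could be tested, and a batch that followed genotype cannot be told apart from it. In 5 cells a decimal comma was read as a point. The authors' relative quantities are a linear ratio, rebuilt here from Ct to within 5.22e-06 on the log2 scale as the mean of U6, snoRNA135 and snoRNA202 (and snoRNA429 on the other card) minus the assay's Ct, with the geometric mean of Dicer_WT at 1. The deposited fold of the authors equals the ratio of arithmetic means for 515 of 517 assays (tolerance 1e-04, relative).

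Here, wells at Ct 35 or later were set to 35. The 377 assays with product in 2 or 3 aortas of either genotype were tested on the log2 scale with limma 3.58.1 in R 4.3.3 (two-sided, Benjamini-Hochberg over those assays, threshold 0.05). The fit was tested on simulated data with a log2 shift larger than that of any member, so that test does not cover differences of the members' size. Alternatives changed the reference RNAs or normalization, the Ct cutoff, the treatment of silent wells, the detection filter and limma's variance trend, added the replicate number as a block, or left out single aortas. Single ratios had exact permutation tests. Older assay names were paired with RefSeq strands as miR-146a-5p, miR-146b-5p, miR-155-5p, miR-21a-5p and miR-132-3p, and 7 of 7 names looked up were found. Named were the members, the 3 assays most like each, the other arms, both inflammation lists and the cell type markers. The members and lists were chosen with earlier results of these data known. The labels call the replicates biological, and each aorta was taken as 1 mouse. The number of aortas limits the precision.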

Additional observations from a re-analysis of the deposited data

How the results depend on the processing

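Over 19 alternatives, miR-146a, miR-155 and miR-21 stayed below 0 and none of the 4 detected members passed the threshold. The limma adjusted p of miR-146a was between 0.0633 and 0.440. Relative to U87 and Y1, values above 0 were reached by miR-132 (0.099), miR-9 (0.49), miR-210 (0.24), miR-125a-5p (0.33), miR-27b (0.013), miR-125b-5p (0.43), miR-181a (0.30), miR-126-3p (0.51) and miR-31 (0.20). With mean centring this held for miR-9 (0.35), miR-210 (0.092), miR-125a-5p (0.19), miR-125b-5p (0.29), miR-181a (0.15), miR-126-3p (0.36) and miR-31 (0.056). After quantile normalization it held for miR-9 (0.34), miR-210 (0.14), miR-125a-5p (0.039), miR-125b-5p (0.068), miR-181a (0.29), miR-126-3p (0.53) and miR-31 (0.21). With undetected wells missing, miR-124 was at 0.81. Leaving out single aortas gave -0.16 to 0.21 for miR-9, -0.0082 to 0.69 for miR-21*, -2.53 to 0.81 for miR-124 and -0.23 to 0.24 for miR-126-3p. The cause of these turns was not tested beyond the scaling itself. No fold was computed for miR-146b, which had no product.

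Assays called lower, 7 in the report, were 24 at a Ct cutoff of 32, 16 with undetected wells missing, 13 with Ct 40 taken as measured, 20 over assays detected in all 6 aortas, 20 with an intensity trend and 5 to 55 without single aortas. Assays called higher, 0 in the report, were 1 with mean centring, 2 relative to U87 and Y1, 2 after quantile normalization, 2 at Ct 32, 1 with wells missing, 2 over assays detected in all 6 aortas, 1 with a trend and 0 to 9 without single aortas. In the myeloid-induced list 1, miR-187, was called lower at Ct 32, with wells missing, in all 6 aortas and with a trend. At Ct 38 and with Ct 40 as measured the 1 called was miR-147 instead. It entered through the Dicer_WT aortas alone, so its calls rest on the value given to silent wells and are no support. Without single aortas 0 to 3 were called. These were miR-187, miR-221 and let-7e without Dicer_KO replicate 1, and miR-147 without Dicer_WT replicate 3. In the restraining list 1, miR-223, was called lower at Ct 32, with wells missing, in all 6 aortas, with a trend and with the replicate block. The ratio of miR-146a to miR-223 was 0.58 after quantile normalization.

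Same-numbered aortas did not deviate together (correlations -0.08, -0.10 and 0.043, with 0 of 3 numbers matching best). With so few aortas in each genotype this check cannot exclude that the numbers pair mice. With the replicate block, 7 assays were called lower and 0 higher, with miR-146a at a limma adjusted p of 0.0680, miR-155 at 0.166, miR-21 at 0.154 and miR-132 at 0.134. Without it the limma adjusted p was 0.106, 0.226, 0.228 and 0.226 in the same order.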

Other observations

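The remaining cell type markers overlapped between genotypes, apart from smooth muscle and miR-451. The smooth muscle pair miR-143 and miR-145 was at log2 fold changes of -0.76 and -0.42, with no overlap for 2 of 2 (32.6% of all assays) and 0 past the threshold, though miR-145 overlapped in Ct before normalization. The erythroid miR-451, whose maturation bypasses Dicer, was at 1.36 with no overlap on the authors' scale (2.39% of all assays were separated in that direction) but overlap in Ct, and miR-486 at 1.12. The endothelial miR-126-5p was at 0.47, the lymphocyte microRNAs miR-150 and miR-181c at 0.53 and -0.70 and the hepatocyte miR-122 at 1.36. The striated muscle list had 5 of 6 assays tested and a median of -0.07. None of these passed limma's threshold over all assays.

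For the members, the fold in the authors' deposited table matched the ratio of arithmetic means of their relative quantities, at 0.531 for miR-146a, 0.530 for miR-155, 0.684 for miR-21 and 0.746 for miR-132. The exceptions among all assays, singled out after their values were seen, were let-7b and miR-195. In the authors' deposited table let-7b has a fold of 0.349 and miR-195 of 0.133, where the deposited quantities give 0.668 and 0.796.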
